A study of Danio rerio with 6 samples.

Results

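miR-205 and miR-203 are microRNAs best known from the epidermis and other surface epithelia. They were followed here in whole embryos at 5.5 h post-fertilization (hpf), the stage of 50% epiboly. Every entry of the miRNA table named miR-205 or miR-203 was taken, with both arms of each hairpin, which gave 6 of the 464 entries: dre-miR-205-5p, dre-miR-205-3p, dre-miR-203a-3p, dre-miR-203a-5p, dre-miR-203b-3p and dre-miR-203b-5p. The F1-γ group held 3 small RNA libraries from embryos whose parents, wild type AB zebrafish, were irradiated at 6 months of age with a gamma dose rate of 8.7 mGy/h over 27 days (5.2 Gy in all) and mated 1 year later. The F1-C group held 3 libraries from embryos of parents of the same strain and genotype that were not irradiated and were kept apart. Each library came from a pool of 100 whole embryos, and in such bulk samples fewer cells of a type and less RNA per cell cannot be told apart. The parents had been kept as 3 replicates of 30 males and 30 females per group.

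A miRNA is cut from a hairpin, whose arms are called 5p and 3p. As a rule the more abundant arm is loaded onto an Argonaute protein and guides it to mRNAs that match its seed, which lowers their translation and stability. In mammals, miR-205 and the miR-200 family hold epithelial cells in their state by repressing the transcription factors ZEB1 and ZEB2, and in mouse skin miR-205 is needed for the growth of skin stem cells. miR-203 promotes differentiation of mouse keratinocytes by repressing p63, a regulator of stratified epithelia. In zebrafish both miRNAs mark the epidermis of later embryos. At 50% epiboly gastrulation is beginning, the outer enveloping layer is already an epithelium, and the epidermis has not yet formed.

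The seed of miR-205-5p is shown because it sets which mRNAs the only called entry of the set can pair with, and those of miR-200a-5p and miR-141-3p because these are the other called epithelial miRNAs described here. The capitals are bases 2 to 8, taken under the names of the human orthologues from the supplementary target table of the study.
miR-205-5p: CCUUCAU
miR-200a-5p: AUCUUAC
miR-141-3p: AACACUG
The 3 seeds differ from each other, so the 3 arms shown do not share a seed. The other arms of their hairpins were not compared. An mRNA site that matches the whole seed of miR-205-5p reads AUGAAGG. In the RefSeq annotation of the GRCz12tu assembly, used for names and neighbours only, the hairpin gene of miR-205 lies within the bounds of plxna2, which encodes a semaphorin receptor. Among named protein-coding genes, the nearest on one side of the miR-203a and miR-203b hairpin genes are kif26ab and kif26aa, a pair of duplicated genes. On the other side they are aspg and tmem179aa.

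dre-miR-205-5p was lower in F1-γ. Its counts were 318, 264 and 206 in the F1-γ libraries, against 439, 745 and 780 in the F1-C libraries, although the F1-γ libraries held more miRNA counts in all. Scaled to library size with factors from the trimmed mean of M-values (TMM) and given as CPM, it had 228, 198 and 149 CPM in F1-γ, against 616, 764 and 612 CPM in F1-C. All F1-γ libraries lay below all F1-C libraries, with a wide gap between the groups. The means were 191 ± 39.5 CPM in F1-γ and 664 ± 86.9 CPM in F1-C (SD, n = 3 each). The log2 fold change (log2 FC, F1-γ over F1-C) was -1.79 with a standard error of 0.21 and a 95% interval from -2.26 to -1.33, which is 3.47-fold lower in F1-γ. Its adjusted p was 0.000297 (quasi-likelihood test of edgeR, Benjamini-Hochberg over the 122 miRNAs tested).

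**Figure D1:**
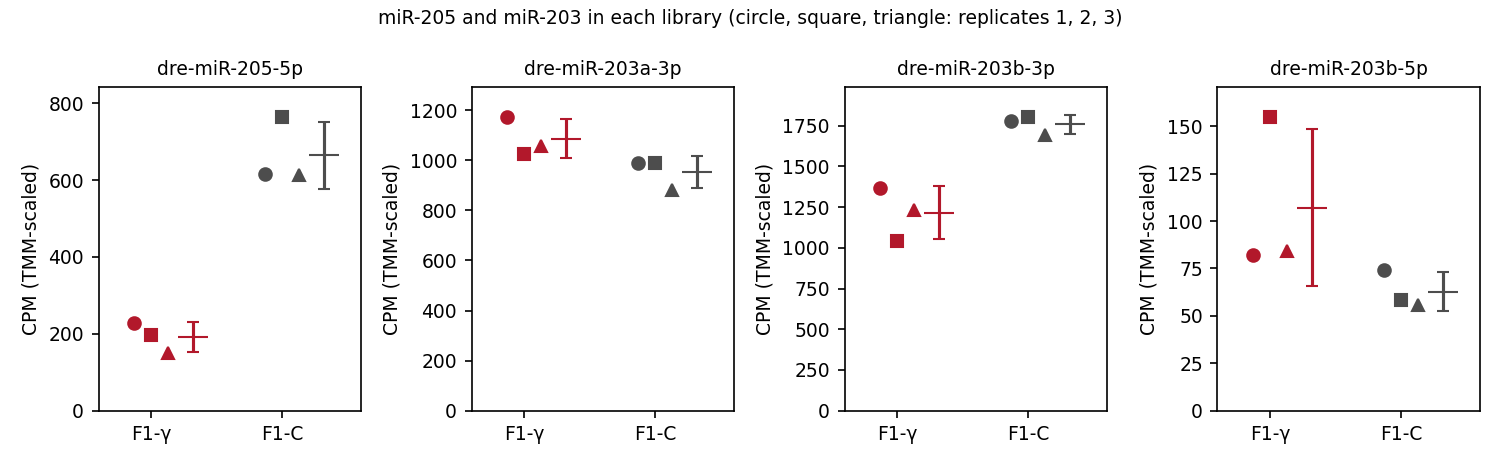
TMM-scaled CPM (linear axes from 0) of the 4 entries above the count minimum in each F1-γ (left, red) and F1-C library (right, grey), with the mean and SD of 3 libraries beside them. dre-miR-205-5p lay between 149 and 228 CPM in F1-γ and between 612 and 764 CPM in F1-C, and dre-miR-203b-5p had 1 high F1-γ library at 155 CPM.

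Testing required more than 30 counts in each library, and a miRNA was called at an adjusted p below 0.05 with a log2 FC above 0.6 or below -0.6. Of the 6 entries, 4 were tested and 1, dre-miR-205-5p, was called, as lower. Over all 122 miRNAs tested, 9.02% were called, 4.92% as lower and 4.1% as higher in F1-γ, and the median log2 FC was 0.13. Without the count minimum, 6.77% of 399 miRNAs were called, and of the 6 entries dre-miR-205-5p (log2 FC -1.91) and dre-miR-203b-3p (log2 FC -0.65). An unadjusted p below 0.05 was found for 3 of the 4 tested entries and for 27% of all tested. By p and by size of decrease dre-miR-205-5p ranked number 2 of the 122.

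In order of mean CPM over all 464 entries, dre-miR-205-5p stood at number 77 in F1-γ and at number 47 in F1-C. Its spread between replicate libraries was 20.6% of the mean in F1-γ and 13.1% in F1-C, where counting error alone gives 6.17% in F1-γ and 3.91% in F1-C. Its neighbours in abundance had similar standard errors. dre-miR-128-3p, just above it, had a log2 FC of 0.13 (standard error 0.196), and dre-miR-30e-3p, just below it, a log2 FC of 0.93 (standard error 0.221).

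The miR-203 hairpins gave their reads mainly from the 3p arm, and neither 3p entry was called. dre-miR-203a-3p had 1173, 1024 and 1059 CPM in F1-γ, against 989, 990.4 and 879.5 CPM in F1-C. The F1-γ libraries were all above the F1-C libraries, but the closest ones nearly met. Its log2 FC was 0.19 (standard error 0.161, 95% interval from -0.17 to 0.54, edgeR adjusted p = 0.542), and upper-quartile normalization turned it to -0.13.

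dre-miR-203b-3p had 1370.2, 1043 and 1233 CPM in F1-γ, against 1781.5, 1804 and 1692 CPM in F1-C. Here all F1-γ libraries were below all F1-C libraries, with means of 1215.5 ± 164 CPM in F1-γ and 1759 ± 59.4 CPM in F1-C (SD, n = 3 each). The log2 FC was -0.53 (standard error 0.171, 95% interval from -0.91 to -0.15), with an edgeR p of 0.0103 before adjustment and 0.0822 after it. It was called in 4 of 18 alternatives: without a count minimum, with DESeq2, with upper-quartile normalization and with the miR-430 family left out. As a sum, both 3p entries had 2301 ± 238 CPM in F1-γ and 2712 ± 123 CPM in F1-C (SD, n = 3 each; two-sided exact permutation test, p = 0.1, the smallest that 3 libraries against 3 allow). Their neighbours in abundance, dre-miR-199-5p and dre-miR-26a-5p beside dre-miR-203a-3p and dre-miR-10b-5p and dre-miR-204-5p beside dre-miR-203b-3p, had standard errors of 0.166, 0.16, 0.178 and 0.309.

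The proportion of the miR-203 copies was unlike in the groups. Within a library, dre-miR-203a-3p had 0.856, 0.981 and 0.859 counts per count of dre-miR-203b-3p in F1-γ, against 0.555, 0.549 and 0.520 in F1-C. The entries were thus closer to equal in F1-γ, whereas dre-miR-203b-3p was well ahead in F1-C, and the groups did not overlap. The mean difference of the log2 ratio was 0.73, or 1.66-fold (two-sided exact permutation test, p = 0.1, n = 3 each), and it stayed between 0.66 and 0.76 when any single library was left out. This ratio does not depend on the scaling of the libraries, but it was chosen after the values had been seen. The entries are not independent in their reads. In 4 of 6 libraries both carried a fraction of 0.5 and in the other 2 both were whole, and the counting weighted a read by its number of loci. How many reads they share is unknown, so the level of each copy is uncertain. dre-miR-205-5p had whole counts in 6 of 6 libraries.

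Of the minor arms, only dre-miR-203b-5p passed the count minimum. It had 82.3, 155 and 84.1 CPM in F1-γ, against 74.3, 58.5 and 55.7 CPM in F1-C. The second F1-γ library stood far above the other two, and the lowest F1-γ library was close to the highest F1-C library. The log2 FC was 0.78 (standard error 0.289, 95% interval from 0.14 to 1.42), with an edgeR p of 0.0217 before adjustment and 0.11 after it, so that it was not called. With the second F1-γ replicate left out the log2 FC was 0.47 (edgeR adjusted p = 0.15). With the first left out it was 0.87 and with the third left out 0.85, and it was called in both cases (edgeR adjusted p = 0.0172 and 0.0449). Its neighbours in abundance, dre-miR-19c-3p and dre-miR-19d-3p, had standard errors of 0.265 and 0.31.

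The 5p arm took 5.67%, 12.9% and 6.38% of the miR-203b counts in the F1-γ libraries, against 4.0%, 3.14% and 3.19% in the F1-C libraries. Over the summed libraries the share was 8.04% in F1-γ (95% Wilson interval 7.35% to 8.79%) and 3.37% in F1-C (2.92% to 3.89%), intervals that cover counting error only. As a log2 ratio of the 5p to the 3p entry the groups differed by 1.25 and did not overlap (two-sided exact permutation test, p = 0.1, n = 3 each), and by 0.85 without the second F1-γ replicate. This ratio was also chosen after the values had been seen.

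For miR-203a the 5p arm held 12 of 4481 counts in F1-γ (0.268%) and 7 of 2799 in F1-C (0.25%). dre-miR-203a-5p had 2, 8 and 2 counts in F1-γ, against 2, 0 and 5 in F1-C. dre-miR-205-3p had 1 count in all of F1-γ and 1 in all of F1-C, and was at 0 in 4 of 6 libraries, where a count of 0 allows up to 3 counts, or 2.15 to 4.21 CPM. It was 0.0726% of the miR-205 counts over all libraries (95% Wilson interval 0.0199% to 0.264%). A difference between the groups in either arm was not detectable at this depth.

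Relative to miR-203, dre-miR-205-5p was lower in each F1-γ library. There were 0.0866, 0.0887 and 0.0628 counts of dre-miR-205-5p per count on the 4 miR-203 entries in F1-γ, against 0.216, 0.268 and 0.233 in F1-C. The log2 ratio was -3.67 ± 0.278 in F1-γ and -2.07 ± 0.157 in F1-C (SD, n = 3 each), a difference of -1.60 and 3.03-fold lower in F1-γ (two-sided exact permutation test, p = 0.1). Seen as a share of all counts on the 6 entries, dre-miR-205-5p made up 7.34% ± 1.25 in F1-γ and 19.3% ± 1.71 in F1-C (SD, n = 3 each). The 6 entries together were 0.262% ± 0.0245 of the miRNA counts in F1-γ and 0.342% ± 0.0182 in F1-C (SD, n = 3 each; exact permutation test, p = 0.1).

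**Figure D2:**
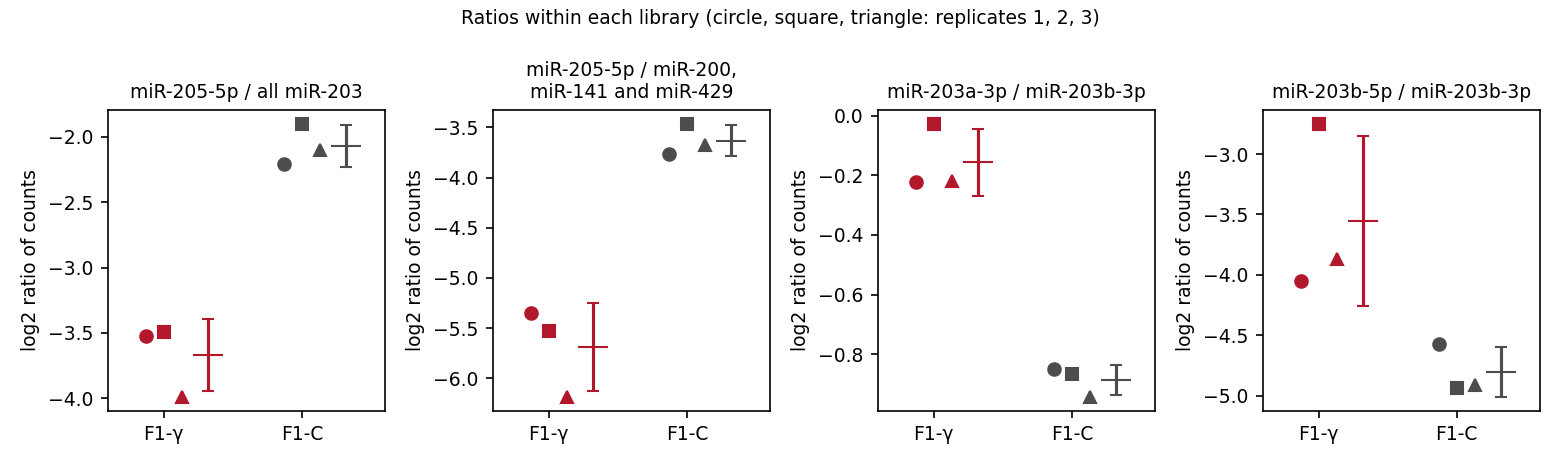
log2 ratios of counts within each F1-γ (left, red) and F1-C library (right, grey), with the mean and SD of 3 libraries, and axes that do not start at 0. The ratio of dre-miR-205-5p to all miR-203 entries averaged -3.67 in F1-γ and -2.07 in F1-C, and in each of the 4 panels the groups did not overlap.

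Other epithelial miRNAs were called in both directions. The miR-200, miR-141 and miR-429 entries, a family found in many epithelia, numbered 10, and 5 of them were tested. dre-miR-200a-5p was higher in F1-γ (log2 FC 1.23, standard error 0.245, edgeR adjusted p = 0.00892). dre-miR-141-3p was lower (log2 FC -0.77, standard error 0.167, edgeR adjusted p = 0.0126). dre-miR-200b-3p, dre-miR-200a-3p and dre-miR-200c-3p were not called, with log2 FC of 0.36, -0.32 and -0.44. The list had a median log2 FC of -0.32 over its 5 tested entries, beside 0.13 for all miRNAs tested. Its summed CPM went the other way. The 10 entries summed to 9158 to 10900 CPM in F1-γ and 7837.5 to 8427 CPM in F1-C, without overlap. Within this sum dre-miR-200a-5p rose most, with means of 2956 CPM in F1-γ and 1264 CPM in F1-C. dre-miR-200b-3p was also higher (means of 4008 CPM in F1-γ and 3124.5 CPM in F1-C), and the other 3 tested entries were lower. The higher sum is thus not a rise of the family as a whole. Against the sum of these 10 entries, dre-miR-205-5p had 0.0245, 0.0216 and 0.0137 counts per count in F1-γ, against 0.0736, 0.0907 and 0.0781 in F1-C. The groups did not overlap, and the ratio was 4.16-fold lower in F1-γ (two-sided exact permutation test, p = 0.1, n = 3 each). This ratio holds both the decrease of dre-miR-205-5p and the higher sum of the 10 entries in F1-γ, in which dre-miR-200a-5p rose most.

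**Figure D3:**
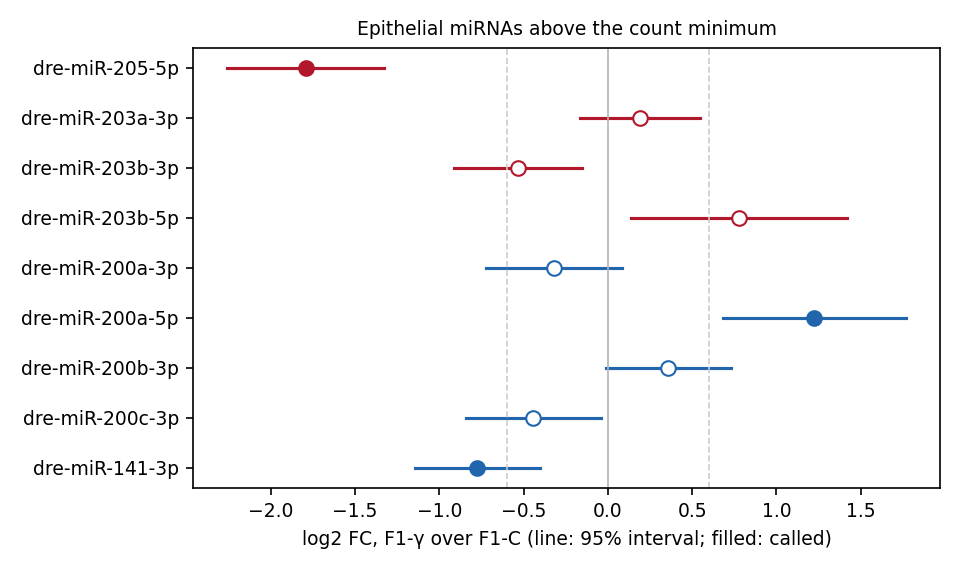
log2 FC (F1-γ over F1-C) of the 9 epithelial entries that were tested, with 95% intervals from the edgeR fit. Filled points were called, red marks miR-205 and miR-203, blue marks miR-200 and miR-141, and dashed lines stand at -0.6 and 0.6. dre-miR-205-5p, at -1.79, lay farthest from 0 of the 9.

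Of 16 entries of miRNAs with a described role in mammalian keratinocytes (miR-24, miR-31, miR-34, miR-125b and miR-184), 2 were tested. Neither was called by edgeR or DESeq2, and 0 had an unadjusted p below 0.05 in either. dre-miR-125b-5p had 559 ± 145 CPM in F1-γ and 646 ± 37.0 CPM in F1-C (SD, n = 3 each). dre-miR-184-3p, which counteracts miR-205 on a shared target in human keratinocytes, had 499.6 ± 166 CPM in F1-γ and 579.6 ± 24.1 CPM in F1-C (SD, n = 3 each). The groups overlapped for both. The 16 entries summed to between 1138 and 1203 CPM in F1-γ and between 1313 and 1434 CPM in F1-C. These sums did not overlap between the groups, with F1-γ lower.

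The 5 tested miRNAs whose log2 CPM followed dre-miR-205-5p most closely over the 6 libraries were dre-miR-738-5p (Pearson's r = 0.99), dre-miR-221-3p (0.985), dre-miR-141-3p (0.957), dre-miR-200c-3p (0.931) and dre-miR-27e-3p (0.912). These are correlations over 6 libraries that share the difference between the groups, and are given as a description. Their log2 FC were -3.39, -1.12, -0.77, -0.44 and -0.68, and the first 3 of them were called, as lower in F1-γ. Among the tested miRNAs, only dre-miR-738-5p had a larger decrease than dre-miR-205-5p.

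**Figure D4:**
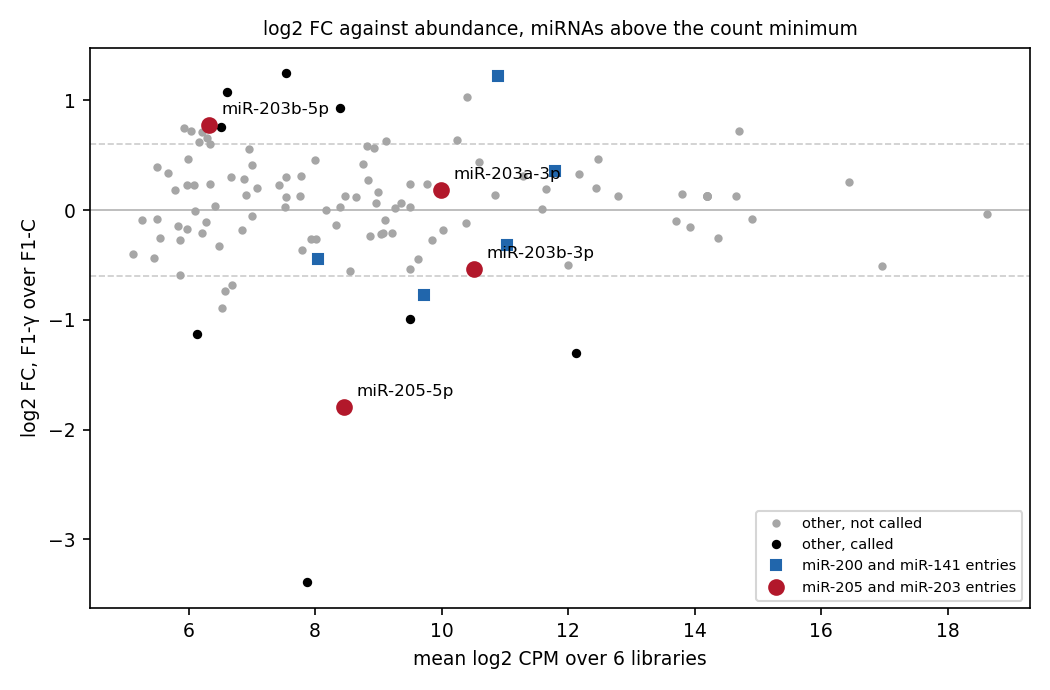
log2 FC (F1-γ over F1-C) against mean log2 CPM for the 122 miRNAs tested, with dashed lines at -0.6 and 0.6. dre-miR-205-5p stood at -1.79, below all but 1 point, while the 3 tested miR-203 entries lay between -0.53 and 0.78.

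All 4 tested miR-205 and miR-203 entries had CPM ranges that did not overlap between the groups, 2 with F1-γ higher and 2 with F1-γ lower. The same held for the 5 tested miR-200 and miR-141 entries, 2 with F1-γ higher and 3 with F1-γ lower. Of all miRNAs tested, 33.6% had such ranges, 20.5% with F1-γ higher and 13.1% with F1-γ lower. Some facts of the whole libraries moved with the groups, and their part in the results was not tested. The miRNA totals were 1245801 to 1464138 counts in F1-γ and 704953 to 1167284 in F1-C, and the snRNA totals 5756 to 9138 in F1-γ and 24212 to 30257 in F1-C. The piRNA cluster totals were 611701 to 810056 counts in F1-γ and 469295 to 604146 in F1-C. The share of the miR-430 family, which is abundant in early zebrafish embryos, did not separate the groups. This family took 83.9% to 88.4% of the miRNA counts in F1-γ and 85.8% to 87.6% in F1-C. Its most counted entry was dre-miR-430a-3p.

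Muscle miRNAs (miR-1, miR-133 and miR-206) summed to 69.8 to 146 CPM in F1-γ and 33.3 to 42.1 CPM in F1-C, with 4 of 10 entries at 0 in every library. dre-miR-1-3p, the most counted of them, had 49.0, 85.7 and 111 CPM in F1-γ, against 22.4, 32.8 and 20.8 CPM in F1-C. Without the count minimum it was called (log2 FC 1.58, edgeR adjusted p = 1.23e-05). Red blood cell miRNAs (miR-144 and miR-451), led by dre-miR-144-5p, summed to 59.1 to 62.3 CPM in F1-γ and 40.7 to 47.1 CPM in F1-C. Of these only dre-miR-144-5p separated the groups. dre-miR-451-5p overlapped, with 20.8, 26.2 and 23.2 CPM in F1-γ, against 18.2, 22.6 and 21.2 CPM in F1-C. dre-miR-144-3p had at most 4 counts in any library. Without the count minimum, dre-miR-144-5p was not called (log2 FC 0.62, edgeR adjusted p = 0.393). No muscle, red blood cell, liver or endothelial entry passed the count minimum, so none of them was tested. Of 8 neural entries (miR-9 and miR-124), led by dre-miR-124-2/3/5-5p, 3 were tested and 0 called. The sums of the 8 overlapped between the groups (862 to 1160.2 CPM in F1-γ and 907 to 1141 CPM in F1-C). Among the 3 tested, 1 had ranges that did not overlap, with F1-γ higher. The ranges also overlapped for dre-miR-122-5p of liver (20.96 to 35.8 CPM in F1-γ and 16.4 to 21.2 CPM in F1-C). So did the sums of the endothelial miR-126 entries, led by dre-miR-126a-3p (65.9 to 95.05 CPM in F1-γ and 44.9 to 88.7 CPM in F1-C).

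The decrease of dre-miR-205-5p was called in each of 18 alternatives, with a log2 FC between -2.12 and -1.68 and an adjusted p of at most 0.00439 from edgeR or DESeq2. dre-miR-203b-3p had a negative log2 FC in each of the same alternatives (-0.85 to -0.39) and dre-miR-203b-5p a positive one (0.43 to 0.91), but they were called in only 4 and 2 of them.

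**Figure D5:**
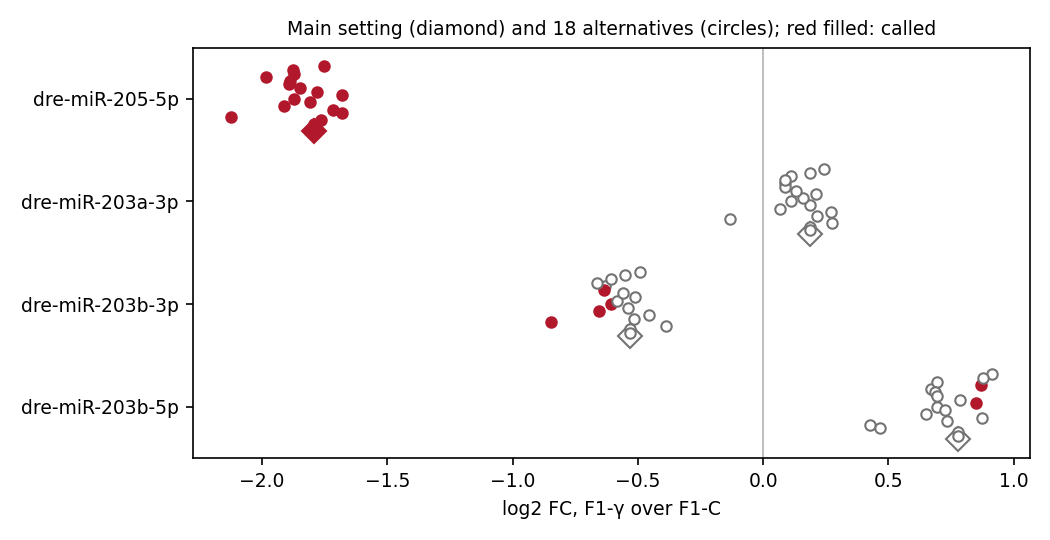
log2 FC (F1-γ over F1-C) of the 4 tested entries as reported (diamonds) and in 18 alternatives (circles, spread vertically for legibility), red and filled where called. dre-miR-205-5p was called in all of them, and dre-miR-203a-3p, from -0.13 to 0.27, in none.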

How the data were processed

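Small RNA was sequenced from 3 F1-γ and 3 F1-C libraries, grouped by their labels. The authors trimmed reads with Trim Galore 0.3.7, kept those of 18 to 36 nt and used GRCz10. The miRNA values deposited by the authors are estimated counts from miRDeep2, in which a read on several loci was divided among them, and are not scaled to library size. The piRNA cluster table holds estimated counts made by the authors with proTRAC. The snRNA and lincRNA tables hold whole counts of reads deposited by the authors. Those 3 tables served for library totals only.

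Estimated counts were rounded, scaled with TMM factors to CPM (counts divided by scaled library size) and tested with edgeR 4.0.16 (R 4.3.3, quasi-likelihood, no covariate, Benjamini-Hochberg) above a minimum of 30 counts in each library. The study used the exact test of edgeR, which was an alternative here, as were DESeq2 1.42.0, other count minimums, normalizations and library sizes, a replicate block and leaving out each library. For single values, exact permutation tests (SciPy 1.17.1, two-sided) were used, with 0.5 counts added for log2 ratios. Reads carry no molecular identifiers, so Wilson intervals and floors cover counting error only. The 95% intervals of the log2 FC come from the edgeR fit and include the spread between replicate libraries. Replicates differed beyond sampling noise: over all miRNAs the closest pair had 21.04 as its chi-square divided by the degrees of freedom. That value treats entries as independent, although the miR-430 family held most counts and several of its 5p entries have equal, divided counts. Per the methods of the study, each library was a biological replicate made from its own embryo pool. The fit was tested on simulated data. The members, the lists of other miRNAs and the tests were chosen with earlier results of these data known. The text names all members, and the called and the most counted entries of each list. It also names the neighbours in abundance and the 5 miRNAs most like dre-miR-205-5p. dre-miR-200a-3p, dre-miR-184-3p, dre-miR-451-5p and dre-miR-144-3p were added after their values were seen. For the F1-γ library whose title carries the numbers 2 and 3, the last was used. Mature sequences were not used here.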

Additional observations from a re-analysis of the deposited data

How the results depend on the processing

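The number of miRNAs called, 11 (5 higher and 6 lower), was 27 without a count minimum, 20 with more than 10 counts in at least 3 libraries, 17 with DESeq2 (6 higher and 11 lower) and 2 with library sizes from the piRNA cluster table, both lower. The split of calls was 4 higher and 9 lower with RLE factors, 3 and 13 with upper-quartile factors, and 4 and 10 with the miR-430 family left out. Leaving out 1 library at a time gave 4 (without F1-C replicate 2) to 26 calls (without F1-γ replicate 1), and 6 without F1-C replicate 3. dre-miR-203b-3p was called at a log2 FC of -0.65 without a count minimum, -0.61 with DESeq2, -0.85 with upper-quartile factors and -0.63 without the miR-430 family. dre-miR-203b-5p ranged between 0.47 and 0.88 with 1 library left out. dre-miR-203a-3p turned to -0.13 with upper-quartile factors, which also moved the median of all miRNAs to -0.23, beside 0.13 as reported. The cause of these changes was not tested. With the replicate number as a block, 12 miRNAs were called and dre-miR-205-5p had a log2 FC of -1.81. Deviations of same-numbered libraries correlated at -0.0915, 0.0745 and -0.0229, and those of other pairs between -0.2 and 0.214. No pairing by number was seen, but with 3 libraries per group this check could miss one. Of 130 alternative values for 10 results, 16 of them chosen after seeing the data, 116 were labelled the same as reported and 1 was reversed. For a fold change, the same means an unchanged direction and side of the threshold. For shares and ratios it means the direction only, and for the number of miRNAs called a similar number. With 3 libraries per group, single values cannot reach a permutation p below 0.1.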
